A study of Mus musculus with 12 samples.

Results

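The messenger RNA of voltage-gated calcium channels of the N, P/Q, R and T types was followed in cells and tissue of the mouse superior cervical ganglion (SCG), the uppermost sympathetic ganglion of the neck. The members were set by their gene symbols: 6 genes for pore-forming subunits (Cacna1a, Cacna1b, Cacna1e, Cacna1g, Cacna1h and Cacna1i) and 2 for the extracellular subunits Cacna2d1 and Cacna2d3. Every probe set with 1 of these symbols and no other was taken, which gave 19 of the 45037 probe sets tested and 7 of the 18193 genes. Cacna1i, the third T-type pore, was not analysed here. Where a gene had several probe sets, the one with the highest mean over all arrays stood for the gene and the others were set beside it.

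The study cultured SCG cells of CD1 mice on flat surfaces (2D) or inside porous polystyrene scaffolds (3D) and used freshly dissected SCG tissue as a stand-in for the ganglion in vivo. The design text names the spatial properties of the cultures as what was compared, with the surface chemistry held alike by a coating. Each of the 3 groups had 4 arrays labelled as biological replicates, and no sample carried a transgene or drug. Both cultures were dissociated ganglia of mixed cell types on type I collagen in medium with serum and nerve growth factor. By the paper they spent days in culture before the arrays. The tissue arrays lacked these steps, so tissue and culture differed in more than geometry. The labels give an age of 21 days for all 12 samples, while the methods name neonatal mice as the source. The labels describe the 2D substrate as a polystyrene Petri dish and the methods as a glass-bottom dish.

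A voltage-gated calcium channel opens when the membrane depolarises and lets calcium into the cell. Its pore subunit sets the type: the P/Q pore is encoded by Cacna1a, the N pore by Cacna1b, the R pore by Cacna1e and the T pores by Cacna1g, Cacna1h and Cacna1i. N-type channels carry most of the high-voltage-activated calcium current of sympathetic neurons and trigger noradrenaline release at their terminals, whereas T-type channels open near the resting potential and shape burst firing. The alpha2delta subunits are anchored outside the membrane and help to bring the N, P/Q and R pores to the surface, and Cacna2d1 is the target of gabapentin.

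The arrays carried the RNA of a sympathetic ganglion: Th, the rate-limiting enzyme of catecholamine synthesis, read between 9.44 and 12.44 (log2 RMA value, the scale of every level below) in the cultures and between 11.05 and 13.45 in tissue. Tissue replicates 2 and 3 stood apart. Their Gapdh control probe sets read 3.45 and 3.05 higher at the 3′ than at the 5′ end, against 0.36 to 1.27 on the other arrays, which is a sign of shortened RNA. Myh1, a skeletal muscle myosin, read 11.23, 10.94 and 10.26 in tissue replicates 2, 3 and 4, against 4.38 in tissue replicate 1 and at most 3.92 in culture. The 5 genes of dividing cells all fell in tissue against both cultures, with mean levels of 9.47 to 10.09 in culture and 5.30 to 5.76 in tissue. A list of 15 pan-neuronal genes had mean levels of 9.98 to 11.44 in 2D, 10.36 to 11.11 in 3D and 10.59 to 12.14 in tissue, lowest of all in 2D replicate 4. By the calls defined in the next paragraph, 4 of these 15 were higher in tissue than in 2D and 7 than in 3D. Of 11 sympathetic genes 4 and 9 were higher, against 9.87% and 15.5% of all genes. Without tissue replicates 2 and 3 the pan-neuronal counts were 6 and 14 and the sympathetic counts 4 and 11, against 10.1% and 22.7%. With cyclic loess the pan-neuronal counts were 7 and 13 and the sympathetic counts 7 and 9, where the share of all genes was not counted. In such bulk RNA, fewer cells of a type and less RNA per cell cannot be told apart, and the part of these values in the results below was not tested except where a value is given.

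Tissue held less Cacna1h than either culture, and more Cacna1a, Cacna2d1 and Cacna2d3 than 3D-cultured cells. No member passed the threshold between 3D and 2D. Calls were made with limma at a Benjamini-Hochberg adjusted p under 0.05 over all probe sets. For 3D against 2D, 0 of 7 members were called, against 0.0165% of all genes, and the smallest adjusted p was 0.347. At an unadjusted limma p under 0.05 there were 2 members, Cacna1a and Cacna1g, where 13.1% of all genes passed; the methods' t-test gave 1 unadjusted, Cacna1g, where 11.6% passed, and 0 after adjustment. In this comparison 0 members had arrays that did not overlap, as 7.36% of all genes had. For tissue against 2D, 0 members were higher and 1 was lower, against 9.87% and 14.3% of all genes and 24.1% in both directions. For tissue against 3D, 3 members were higher and 1 lower, against 15.5% and 20.1% and 35.6% in both directions. The methods' t-test gave 3 members unadjusted (36.7% of all genes) and 1 adjusted (14.7%) for tissue against 2D, and 5 (43.7%) and 3 (28.2%) for tissue against 3D. The median log2 difference of the 7 members was -0.03 in 3D against 2D, 0.30 in tissue against 2D and 0.61 in tissue against 3D, while the medians of all genes were 0.01, 0.03 and 0.03. Without tissue replicates 2 and 3 the counts were 0 higher and 1 lower against 2D and 4 higher, with Cacna1b added, and 1 lower against 3D. On those arrays 10.1% of all genes were higher and 12.3% lower against 2D, and 22.7% and 24.6% against 3D. Over the 3 groups an F test called 4 of the 7, where 39.3% of all genes passed. Both tissue comparisons share the tissue arrays, so their calls are not independent of each other.

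**Figure D1:**
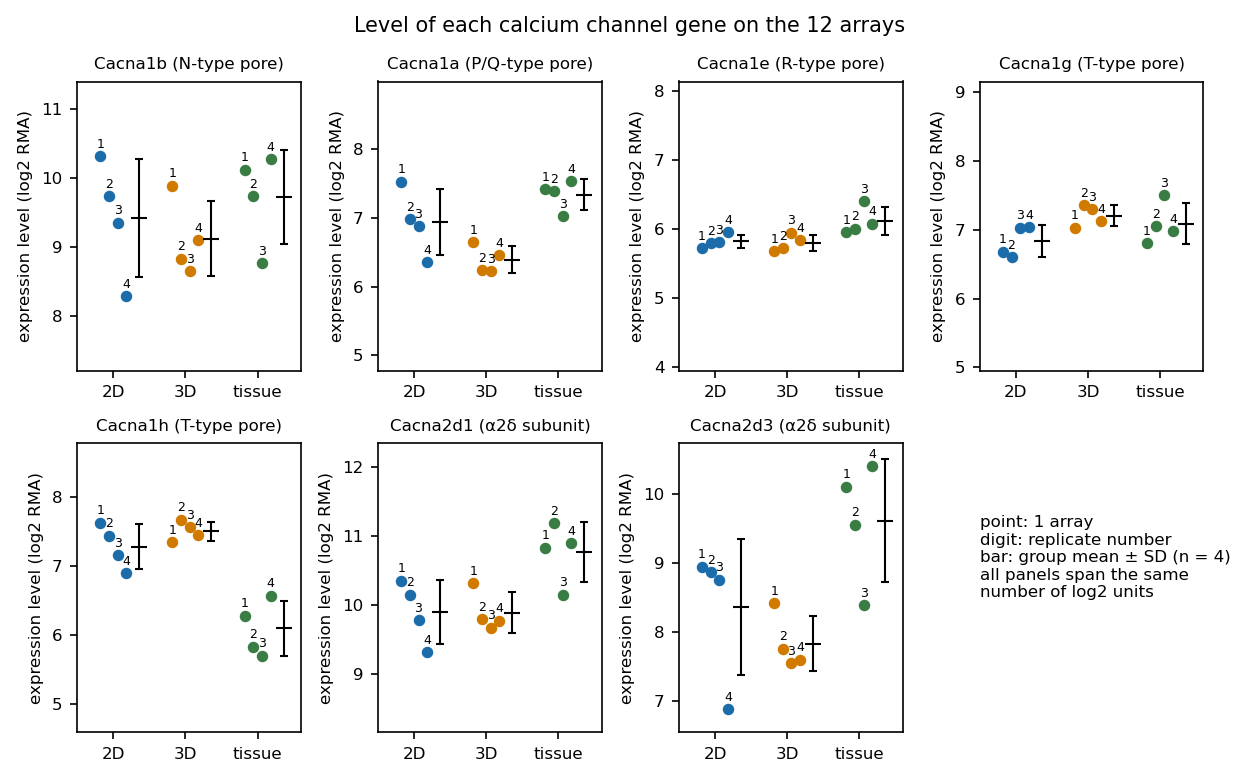
Log2 RMA level of the 7 measured members on each of the 12 arrays, 1 panel a gene, with the replicate number beside each point and the group mean and SD as a bar; each panel spans the same number of log2 units. Cacna1h lies lower on all 4 tissue arrays than on any culture array, and Cacna1b overlaps between all 3 groups.

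The N-type pore gene Cacna1b varied widely between replicates of the same group. It read 10.32, 9.74, 9.35 and 8.28 in 2D replicates 1 to 4, 9.89, 8.83, 8.65 and 9.10 in 3D, and 10.12, 9.74, 8.76 and 10.27 in tissue. The 3 groups overlapped, with the lowest value in 2D replicate 4 and the highest in 2D replicate 1. Their means were 9.42 ± 0.86, 9.12 ± 0.55 and 9.72 ± 0.68 (SD, n = 4 each).

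With all arrays and the settings named above, no Cacna1b difference was called. Tissue differed from 2D by 0.30 on the log2 scale (SE 0.46, limma adjusted p = 0.639), with a 95% interval of -0.75 to 1.35. Tissue differed from 3D by 0.61 (SE 0.37, adjusted p = 0.225), with an interval of -0.24 to 1.45. The call against 3D turned with the setting: with limma array weights the difference was 1.09 (adjusted p = 0.00770), with cyclic loess 1.02 (0.0193), with arrays centred on bright probe sets 0.88 (0.0452) and without tissue replicate 3 it was 0.93 (0.0346). Centring also raised the median of all genes against 3D to 0.31. Of the other 3 Cacna1b probe sets, 1 was higher in tissue than in 3D, by 0.81 (adjusted p = 0.0266), and the others gave 0.66 (0.0897) and 0.16 (0.564).

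Of the measured members, Cacna1b, Cacna1e, Cacna2d1 and Cacna2d3 had a promoter window in the RefSeq table used. The start of Cacna1b is shown because only its window reaches outside the annotated gene. The printed stretch is the 202 bases at chr2:24763201-24763402 on the minus strand of RefSeq GRCm38.p6, 5′ to 3′, which end where the annotated gene begins. Capitals mark each GGGCGG, the core of a GC box, the kind of element that Sp1-family factors bind.

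Cacna1b upstream: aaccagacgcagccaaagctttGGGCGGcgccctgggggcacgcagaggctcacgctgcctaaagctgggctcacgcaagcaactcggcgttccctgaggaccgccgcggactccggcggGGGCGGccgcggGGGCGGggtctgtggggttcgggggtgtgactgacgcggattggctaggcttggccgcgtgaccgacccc

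This stretch was 71.8% G and C, against a median of 51.5% over the table's windows of the same length. It held 3 matches of GGGCGG on either strand, a motif found in 25% of 32851 such windows. TATAAA, the TATA box, stands in 9.22% of the windows, TGACGT, the core of a cyclic AMP response element, in 4.24%, and CAGCTG, an E-box, in 10.4%. None of these 3 strings occurred in the printed bases. The matches describe the letters only.

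Cacna1a, the P/Q-type pore gene that serves release at many central synapses, was higher in tissue than in 3D. It read 7.52, 6.98, 6.88 and 6.35 in 2D, 6.64, 6.24, 6.22 and 6.45 in 3D, and 7.41, 7.38, 7.02 and 7.53 in tissue. All 4 tissue arrays lay above all 4 3D arrays, while the 2D arrays overlapped both, from among the 3D values in replicate 4 to among the tissue values in replicate 1. Between tissue and 3D 42.4% of all genes had no overlap, 18.3% with tissue higher and 24.1% with tissue lower, and 3 members had none: Cacna1a and Cacna1e higher and Cacna1h lower.

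Tissue exceeded 3D by 0.95 on the log2 scale, or 1.93-fold (SE 0.16, limma adjusted p = 0.00249; exact two-sided permutation p = 0.0286, the smallest that 8 arrays allow). The adjusted p stayed at or below 0.0126 whichever array was left out. Tissue against 2D gave 0.40 (adjusted p = 0.240), with an interval of -0.15 to 0.96. A second Cacna1a probe set was higher in tissue against both cultures, by 1.30 (0.0167) and 1.23 (0.0122): its tissue values were 7.04, 7.73, 8.46 and 7.22 and its culture values 6.03 to 6.60. On it the highest values were those of tissue replicates 2 and 3, the arrays with the large 3′ to 5′ ratio. The other 2 Cacna1a probe sets did not pass, at -0.08 and 0.19 against 2D and -0.12 and 0.21 against 3D.

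Cacna1e, the R-type pore gene, varied little, and RMA gives no detection call for it. It read 5.73, 5.80, 5.81 and 5.96 in 2D, 5.68, 5.73, 5.95 and 5.84 in 3D, and 5.96, 6.01, 6.41 and 6.08 in tissue. The tissue arrays lay above the 3D arrays and met the highest 2D array. The difference of 0.32 against 3D was not called (adjusted p = 0.116, exact permutation p = 0.0286), nor was that of 0.29 against 2D (0.175). With cyclic loess the differences were 0.09 and 0.06.

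Cacna1g, a T-type pore gene known for pacemaking and burst firing in central neurons, was measured by 1 probe set. It read 6.68, 6.60, 7.03 and 7.04 in 2D, 7.03, 7.36, 7.30 and 7.12 in 3D, and 6.80, 7.05, 7.50 and 6.98 in tissue. The groups overlapped, with 2D replicates 1 and 2 lowest. 3D read 0.37 above 2D (SE 0.13, 95% interval 0.07 to 0.66 before adjustment for the number of genes), which was not called (limma p = 0.0209, adjusted p = 0.347; exact permutation p = 0.0857). Tissue differed from 2D by 0.25 (adjusted p = 0.356) and from 3D by -0.12 (0.601).

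Cacna1h, the T-type pore gene expressed in sensory neurons and in smooth muscle, was the member that fell in tissue. It read 7.63, 7.44, 7.16 and 6.90 in 2D and 7.35, 7.67, 7.56 and 7.45 in 3D. The tissue arrays read 6.28, 5.83, 5.70 and 6.57, all below every culture array. Cacna1h was the 1 member with no overlap between tissue and 2D, which held for 33.8% of all genes and, with tissue lower, for 18.5%.

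Tissue was lower than 2D, with a log2 difference of -1.19 (2.28-fold, SE 0.24, limma adjusted p = 0.0105), and lower than 3D with a difference of -1.41 (2.66-fold, SE 0.20, adjusted p = 0.00112). The exact permutation p was 0.0286 in both. Leaving out any 1 array kept both calls, with differences of -1.35 to -1.06 and -1.57 to -1.28. Without tissue replicates 2 and 3, which read lowest, the differences were -0.86 (0.0397) and -1.08 (3.10e-04). With tissue replicate 1 as the only tissue array, the 1 low in Myh1, they were -1.003 against 2D (0.125, not called) and -1.23 against 3D (0.00143). In those fits the spread comes from the culture arrays alone, and the lone tissue array is assumed to vary as they do. A second, dimmer Cacna1h probe set did not pass, at 0.20 (0.560) and 0.19 (0.551), with values of 4.04 to 4.48 in culture and 4.17, 4.29, 5.18 and 4.12 in tissue. The 5 genes of dividing cells fell with Cacna1h, and a list of 7 smooth muscle and pericyte genes had mean levels of 8.45 to 9.77 in 2D, 8.24 to 8.49 in 3D and 8.08 to 8.61 in tissue. Their part in the Cacna1h difference was not tested.

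Both alpha2delta genes were higher in tissue than in 3D. Cacna2d1 read 10.35, 10.15, 9.78 and 9.31 in 2D, 10.32, 9.79, 9.67 and 9.77 in 3D, and 10.83, 11.19, 10.15 and 10.90 in tissue. Tissue replicate 3 lay among the culture values and the other 3 tissue arrays above them. Tissue exceeded 3D by 0.88, or 1.84-fold (SE 0.24, limma adjusted p = 0.0223), and the exact permutation p was 0.0571. Against 2D the difference of 0.87 was not called (SE 0.28, adjusted p = 0.0564), though it was with cyclic loess (1.31, 0.00779), centring on bright probe sets (1.15, 0.0134), array weights (0.81, 0.0196) or 1 fit of all 12 arrays (0.0221). Centring also raised the median of all genes against 2D to 0.31.

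The Cacna2d1 call against 3D did not survive the omission of 3D replicate 2 (adjusted p = 0.0643), 3 (0.0667) or 4 (0.0663), or of tissue replicate 2 (0.0626). Nor did it survive the mean of its probe sets, which gave 0.40 (0.0996). Of the other 4 Cacna2d1 probe sets, 1 was higher in tissue, by 1.08 against 2D (0.0389) and 1.04 against 3D (0.0292). It read 5.05, 6.06, 6.10 and 4.76 in tissue and 4.20 to 4.59 in culture, so that tissue replicates 2 and 3 were again highest. The remaining 3 gave -0.16 to 0.36 against 2D and -0.30 to 0.23 against 3D.

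Cacna2d3, a relative of Cacna2d1 that shapes synapses and hearing and pain pathways, varied most. It read 8.95, 8.87, 8.76 and 6.88 in 2D, 8.42, 7.76, 7.55 and 7.60 in 3D, and 10.11, 9.56, 8.39 and 10.41 in tissue. Tissue replicate 3 lay just below the highest 3D array and below 3 of the 2D arrays, and 2D replicate 4 lay far under the other 2D arrays. Tissue exceeded 3D by 1.79, or 3.45-fold (SE 0.41, limma adjusted p = 0.0110), and leaving out any 1 array gave 1.52 to 2.19 with adjusted p of at most 0.0366. The exact permutation p was 0.0571. Tissue against 2D gave 1.25 (SE 0.56, adjusted p = 0.127), with an interval of -0.01 to 2.51. That difference was called with array weights (1.51, 0.0253), cyclic loess (1.59, 0.0483) or centring on bright probe sets (1.54, 0.0356). With centring the median of all genes against 2D was 0.31.

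**Figure D2:**
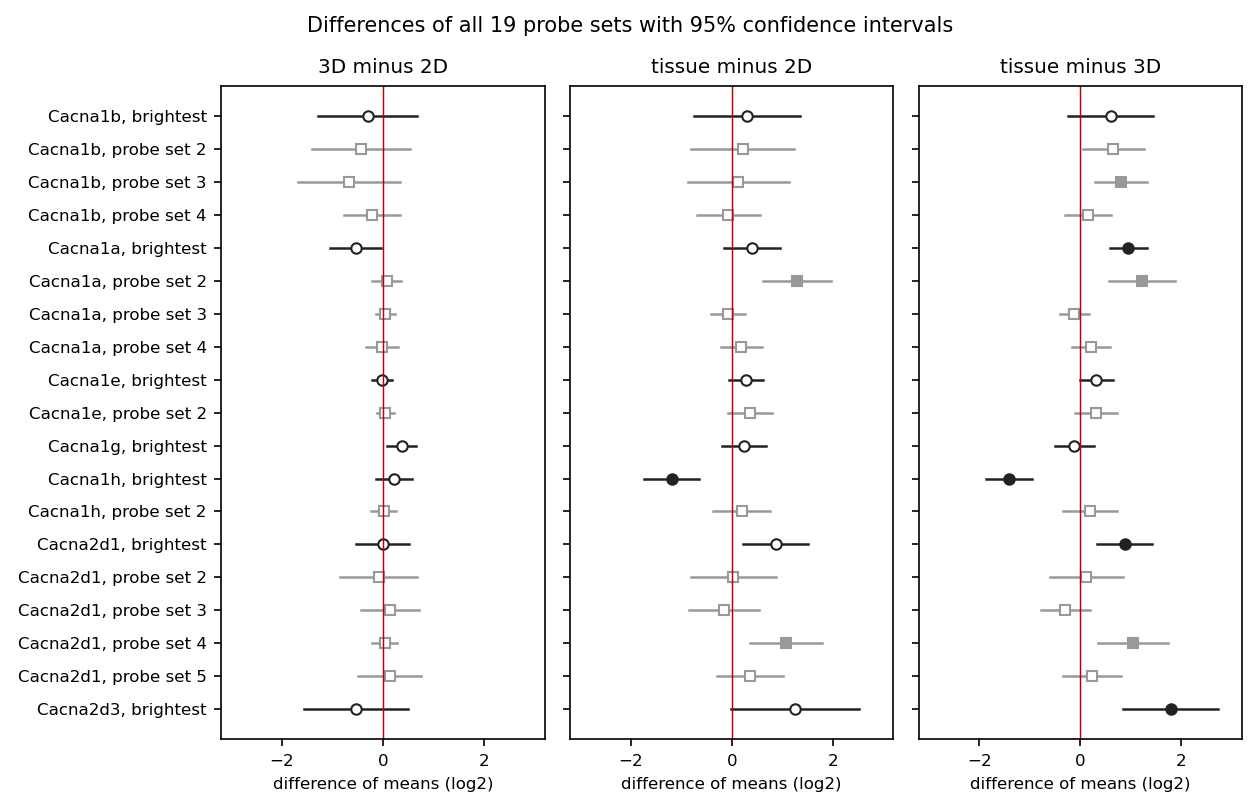
Log2 difference of all 19 member probe sets in the 3 comparisons with 95% intervals; black circles are the brightest probe set of a gene, grey squares its others, and filled symbols have a limma adjusted p under 0.05. The 2 tissue comparisons hold 3 and 7 filled symbols and 3D against 2D holds 0.

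Counted by probe set, 0 of 19 passed between 3D and 2D (0.0155% of all probe sets). Between tissue and 2D 2 were higher and 1 lower (22.3% of all passed), and between tissue and 3D 6 were higher and 1 lower (33.1%). The probe sets of Cacna1a, Cacna1b, Cacna1h and Cacna2d1 thus did not all give the same call.

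No single array, when left out, brought a member past the threshold between 3D and 2D. The largest differences of 3D from 2D among the brightest probe sets were -0.55 for Cacna1a (SE 0.22, limma adjusted p = 0.406, exact permutation p = 0.0857), -0.53 for Cacna2d3 (adjusted p = 0.687) and 0.37 for Cacna1g. For Cacna1b the difference was -0.31 (adjusted p = 0.820), with an interval of -1.28 to 0.67. For Cacna1h it was 0.23 (0.620), for Cacna1e -0.03 (0.938) and for Cacna2d1 -0.01 (0.993). Without 2D replicate 4 alone the differences were -1.03 for Cacna2d3 (0.0621) and -0.74 for Cacna1a (0.0808), neither of them called. Without 2D replicate 4 and 3D replicate 1 together they were -1.22 (0.00414) and -0.82 (0.0492). These arrays hold the lowest 2D and the highest 3D value of both genes, so their removal was bound to lower the differences, and those p-values support no call. The same arrays had the lowest neuronal level in 2D and the highest in 3D.

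The members were then set beside the neuronal RNA of the same array. For each gene the deviation from its own mean over the 8 cultures was taken, and the mean deviation of the 15 pan-neuronal genes was subtracted. For Cacna1b this removed most of the spread: the SD over the 8 cultures was 0.69 for the level and 0.26 for the relative value. In tissue its relative value was -0.36 to -0.31, a mean of -0.34 ± 0.02 (SD, n = 4), at the lower end of the culture values of -0.34 to 0.40. For Cacna2d3 the SD over cultures went from 0.76 to 0.26, and the tissue values of 0.49 to 0.97 lay above the culture values of -0.41 to 0.35. For Cacna1h the SD grew from 0.26 to 0.50, and the tissue values of -2.40 to -1.50 lay below the culture values of -0.66 to 0.59.

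For Cacna1a and Cacna2d1 the SD over the cultures fell from 0.45 to 0.26 and from 0.36 to 0.27. The relative tissue values of Cacna1a, -0.475 to 0.56, overlapped its culture values of -0.34 to 0.50. Those of Cacna2d1, -0.34 to 0.46, overlapped its culture values of -0.54 to 0.23. Mean relative values in 3D and tissue were -0.10 and -0.11 for Cacna1a and 0.17 and 0.09 for Cacna2d1. For Cacna1e and Cacna1g the SD rose from 0.10 to 0.59 and from 0.27 to 0.73, so subtracting the neuronal deviation widened the spread of these genes. The relative values are descriptions, since the list was chosen with results of these arrays known and was itself higher on most tissue arrays. They also depend on the list. In tissue replicates 1 to 4 the pan-neuronal list deviated by 1.17, 0.83, -0.20 and 1.345. The 11 sympathetic genes deviated there by 1.93, 1.53, 0.73 and 2.22. The sympathetic deviation was the higher of these on each tissue array, so Cacna2d3 lies lower beside the sympathetic list. Its place above the cultures holds for the pan-neuronal list only and is not shown for sympathetic RNA. Values relative to the sympathetic list were not computed.

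**Figure D3:**
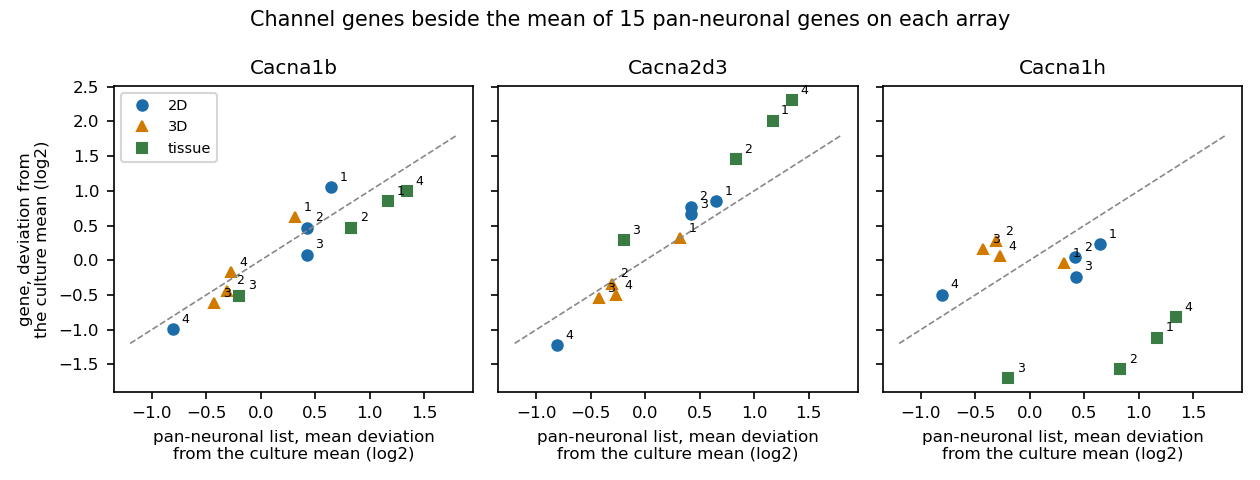
Deviation of Cacna1b, Cacna2d3 and Cacna1h from their culture means (log2, vertical) against the mean deviation of 15 pan-neuronal genes (log2, horizontal) on each of the 12 arrays, with the dashed line of equality. Cacna1b lies within 0.40 of the line on all arrays, Cacna2d3 above it in tissue and Cacna1h below it in tissue.

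The genes with the most similar profile were found for the 4 members that passed the F test, by the root mean square difference between 12 log2 values, each gene centred on its own mean. For Cacna2d3 they were Chrna3, the nicotinic receptor subunit of ganglionic transmission, at 0.162 and Plcxd3 at 0.163, where Cacna2d3 itself varied about its mean by 1.02. Chrna3 read 8.96 in 2D replicate 4 and 10.52 to 10.99 in the other 2D arrays, the same single low array as Cacna2d3. Chrna3 was picked for its likeness on these arrays, so the shared low array followed from the choice. For Cacna1a they were Ydjc (0.122) and Gramd1b (0.166), against its own 0.48. For Cacna2d1 they were Ahi1 (0.128), known from cilia, and Zdhhc17 (0.142), a palmitoyltransferase, against 0.541. For Cacna1h they were Lins1 (0.182) and Ckap5 (0.190), a microtubule protein of the mitotic spindle, against 0.674.

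Other genes of calcium channel function were read from fixed lists, and none of the genes on these 8 lists passed between 3D and 2D. In tissue 9.87% of all genes were higher and 14.3% lower than in 2D, and 15.5% and 20.1% than in 3D. Of 16 measured presynaptic partners of the N and P/Q channels, 6 were higher and 1 lower in tissue than in 2D, and 13 were higher and 1 lower than in 3D, with medians of 1.01 and 1.50. Pclo, the active zone scaffold piccolo, was higher by 3.06 (5.54e-04) and 3.22 (4.15e-05), and Lin7a, an adaptor, by 3.01 (0.00189) and 2.95 (7.09e-05). Syt1, the calcium sensor of release, was higher by 2.03 (0.0118) and 2.66 (4.56e-05), and Vamp2, its vesicle SNARE partner, by 1.43 (0.0101) and 1.73 (3.44e-04). Cask, a membrane scaffold named here after its values were seen, fell by 0.83 (0.0241) and fell by 0.96 (0.00757). Syt1 and Snap25 are also on the pan-neuronal list, and Snap25, the SNARE protein that N channels bind, gave 0.21 (0.804) and 0.58 (0.334). Without tissue replicates 2 and 3 the counts were 6 and 1 against 2D and 14 and 1 against 3D. With cyclic loess or centring on bright probe sets 11 were higher than in 2D, and Cask was not called in either comparison. The share of all genes called with either scaling was not counted, here or for the lists below. Centring raised the median of all genes to 0.31 in both tissue comparisons.

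Of 13 measured auxiliary subunits, 4 were higher in tissue than in 2D and 7 higher than in 3D, with medians of 0.50 and 0.72. Without tissue replicates 2 and 3 the counts were 3 higher against 2D, and 7 higher and 1 lower against 3D. On those arrays 10.1% of all genes were higher against 2D, and 22.7% higher and 24.6% lower against 3D. With all arrays the gamma subunit Cacng3 went the other way, at -0.62 (limma adjusted p = 0.178) and -0.835 (0.0533), neither called. Cacna2d2, the third alpha2delta gene here, rose by 3.02 (adjusted p = 2.47e-04) and 3.53 (1.53e-05), and the beta subunit Cacnb4 by 1.66 (0.00373) and 1.64 (1.78e-04). Of the gamma subunit family, Cacng7 rose by 0.67 (0.0336) and 0.72 (0.0117), and Cacng2, which also traffics AMPA receptors, rose by 0.95 against 3D (0.00221) and differed by 0.66 from 2D (0.0547). Of the 4 L-type pores, Cacna1s alone passed, higher by 0.81 (0.0299) and 0.73 (0.0253): it is the pore of skeletal muscle and stands on the muscle list too. Neither L-type count remained above 0 without tissue replicates 2 and 3 or with cyclic loess.

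The inhibitors and ligands moved the other way in part. Of 3 measured RGK proteins, small GTPases that reduce calcium current, Rrad fell by 1.32 against 2D (0.00832) and by 2.38 against 3D (5.45e-05), and Gem fell by 0.96 against 3D (0.0146) and differed by -1.88 from 2D (0.0695). Of 4 thrombospondins, matrix proteins that bind alpha2delta, Thbs1 fell by 3.79 (0.00508) against 2D and fell by 4.05 (2.00e-06) against 3D, and Thbs2 fell by 2.50 (8.31e-05) and fell by 2.89 (6.10e-06). Thbs4 rose by 2.64 against 2D (0.0120) and differed by 1.32 from 3D (0.0988). The medians of these lists rest on 3 and 4 genes, at -1.32 and -0.96 for the RGK proteins and -1.03 and -1.24 for the thrombospondins. Without tissue replicates 2 and 3, 2 thrombospondins were higher and 2 lower in each tissue comparison. The RGK counts there were 1 lower against 2D and 2 lower against 3D.

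Of 8 T-type regulators, 1 was higher than in 2D and 2 than in 3D: Usp5, a deubiquitinase of Cacna1h channels, rose by 0.76 (0.0258) and 0.79 (0.00682), and Camk2a, a calcium-calmodulin kinase subunit, rose by 0.88 against 3D (0.00541). Against 3D the regulators' count was 5 without tissue replicates 2 and 3. The counts against 2D and 3D were 4 and 5 with cyclic loess and 3 and 4 with centring on bright probe sets. Among 7 channels that act beside these in firing, 3 were higher in each comparison: Nalcn, the sodium leak channel, by 3.09 (0.00298) and 3.75 (1.02e-04), the small-conductance potassium channel Kcnn2 by 1.25 (0.0306) and 1.06 (0.0343), and Hcn3, a pacemaker channel, by 0.88 (0.0323) and 1.11 (0.00665). Without tissue replicates 2 and 3 the firing channels gave 4 and 5 higher, and with cyclic loess 2 were higher and 1 lower against 2D. Of 3 calcium-binding regulators, Caln1 was higher, by 0.97 (0.0339) and 1.08 (0.00457), and its call against 2D was lost with cyclic loess. No gene called on these lists changed sign with cyclic loess or with centring on bright probe sets.

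**Figure D4:**
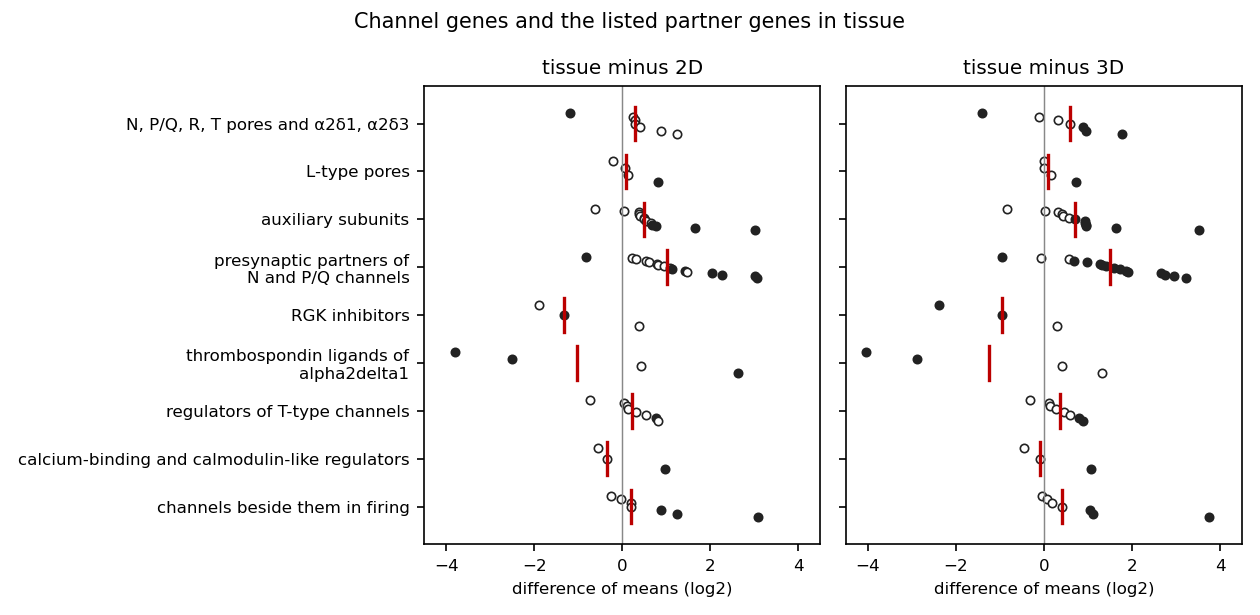
Log2 difference of each gene in tissue against 2D and tissue against 3D, for the 7 members and 8 pathway lists; filled points have a limma adjusted p under 0.05 and the red bar is the list's median. Presynaptic partners lie highest as a group, and thrombospondins hold the lowest values, Thbs1 at -3.79 and -4.05.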

How the data were processed

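Total RNA of 12 samples, 4 in each of 3 groups, was measured on Affymetrix mouse genome arrays. The authors deposited log2 values made with RMA in Expression Console (background adjustment, quantile normalization, summarization); for its version the sources used here give nothing. Quantile normalization hides a shift shared by most genes, and the scanner files were not used, so batches were not tested. Arrays have no counting depth, and their number limits the precision.

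The 64 control probe sets entered no test. Of 45037 probe sets tested, 34945 had 1 symbol in the platform annotation and 932 several, and 9160 are unnamed here. Probe sets were matched to RefSeq GRCm38.p6 records by Entrez ID (7 of 8 members), and the promoter was read from a RefSeq table. Of the 18193 genes, 9010 had several probe sets.

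Groups were compared 2 at a time, on 8 arrays, with limma 3.58.1 (R 4.3.3) and Benjamini-Hochberg adjustment over all probe sets, and single members with an exact two-sided permutation test over 70 splits. The scripts' tests were checked on simulated data. Samples were grouped by their titles, and no pair of arrays was alike (smallest root mean square difference 0.187). Replicates are labelled biological, but nothing states that each came from separate animals, so p-values measure the spread between these samples.

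The members and lists were chosen with earlier results of these data known. Named were all members, the 3 genes of each pathway list with the smallest adjusted p among those that passed in each comparison, Myh1, and for members past the F test the 2 genes most like them. Alternatives covered fit, weights, trend, scaling, dim probe sets (at least 4 arrays at 6 or more kept), choice of probe set, a 2-fold minimum, the methods' tests, replicate block and left-out arrays. Marker lists are given by their counts and levels. Th, Cask, Snap25, Cacng3 and the values of a named gene in its other comparison lie outside the rule. The omission of tissue replicates 2 and 3 from the list counts and from the share of all genes called was chosen after seeing the data.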

Additional observations from a re-analysis of the deposited data

Results flagged for a closer look

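Cacna2d3 in 2D replicate 4 stood apart from its group. The array read 6.88 where the nearest of the other 2D arrays read 8.76, a gap of 0.908 of the group's whole range, above Dixon's 95% critical value for 4 samples. Of 21 groups tested, 3 for each of the 7 members, 1 passed, and about that many pass by chance. The pan-neuronal list on the same array lay 0.81 below its culture mean, at a deviation of -0.81, the lowest of all arrays. Without this array the difference of Cacna2d3 between 3D and 2D was -1.03 (limma adjusted p = 0.0621), against -0.53 (0.687) with all 8 arrays, and neither was called. Removing the lowest 2D array was bound to lower the difference.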

How the results depend on the processing

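In 3D against 2D 0 members passed, or 1 (methods' t-test, unadjusted) and 2 (without 2D replicate 4 and 3D replicate 1, the lowest 2D and highest 3D values of those members, which supports no call). In tissue against 2D 1 passed, 2 in a fit of 12 arrays, without dim probe sets (which dropped Cacna1e) or with the mean of probe sets, 3 with array weights, cyclic loess, centring, the probe set of highest SD or the unadjusted t-test, and 0 with tissue replicate 1 alone, where the spread comes from the 2D arrays and the lone tissue array is assumed to vary like them. Leaving out single arrays gave 1 to 3, with 3 without tissue replicate 3, where Cacna2d1 was 1.08 (adjusted p = 0.0205) and Cacna2d3 1.66 (0.04996). In tissue against 3D 4 passed, 2 at a 2-fold minimum and 3 to 5 with single arrays left out. Over the 3 groups 4 passed, 2 by the methods' test and 2 to 4 with single arrays left out. Centring moved the median of all genes to 0.31 in both tissue comparisons. Apart from the main fits and the pairwise t-tests, the share of all genes called was not counted for the settings of this paragraph. A changed count of members is therefore not a result about the channels.

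With these settings, signs turned only for differences that were not called. Single other probe sets did run against called differences. The second Cacna1h probe set gave 0.20 against 2D and 0.19 against 3D. Against 3D, 1 Cacna1a probe set gave -0.12 and 1 Cacna2d1 probe set -0.30. None of these was called. In 3D against 2D Cacna1e (-0.03) became 0.0048 with weights, 0.01 with the mean of probe sets, 0.045 with the highest SD, 0.06 without 2D replicate 4 and 3D replicate 1, and -0.075 to 0.06 with arrays left out; Cacna2d1 (-0.01) became 0.0415 with the mean, 0.0375 with the highest SD and -0.35 to 0.14 with arrays left out; and Cacna1a became 0.0725 with the highest SD. In tissue against 2D Cacna1b ranged from -0.081 (without 2D replicate 4) to 0.62 with arrays left out, and Cacna1g became -0.0375 with tissue replicate 1 alone. In tissue against 3D Cacna1g became 0.16 with centring. The causes were not tested.

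With the replicate number as a block the counts were 0, 1 and 4, and no call changed. Same-numbered arrays correlated at -0.07 to 0.41, and 4 of 8 arrays in each comparison did best with their own number. These values do not settle whether the numbers pair the samples, and the main fits did not pair them. At 4 arrays a group, the 95% intervals of the uncalled members reached from -1.56 to 2.51, and dim members such as Cacna1e have no detection call.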
